A study of Homo sapiens with 16 samples.

Results

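The genes described here were the 36 genes of fatty acid uptake and oxidation listed by name for this work, out of 43388 genes in the expression table. They were chosen by function, with earlier results of these data known. RNA had been sequenced from cardiomyocytes differentiated from WTC11, an established human induced pluripotent stem cell line, in 16 libraries from 4 groups of 4. The groups were Day 16 RPMI/B27, the baseline, and 3 media used from Day 16 to Day 30, namely Day 30 RPMI/B27, then Day 30 RPMI_glcM/B27, which is RPMI with 5 mM glucose as in HPLM, and Day 30 HPLM/B27, in which the basal medium is human plasma-like medium. All groups carried the same unedited line and the B27 supplement, and the replicates were wells of a single differentiation in 1 line, so p-values measured the spread between wells. HPLM differs from RPMI in many salts and metabolites as well as glucose, and a comparison of these media is a comparison of whole formulations.

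The heart draws most of its energy from long-chain fatty acids. These enter through CD36 and the fatty acid transport proteins, are carried in the cytosol by fatty acid-binding proteins, are activated to acyl-CoA, cross into the mitochondrion as carnitine esters through CPT1 and CPT2, and are shortened by the repeated steps of beta-oxidation. Fetal and stem cell-derived cardiomyocytes are known to rely more on glucose, and a rise of this pathway is a known feature of the heart after birth.

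Levels are given as scaled TPM, that is, the deposited TPM (reads per gene length, scaled to a fixed total per library) divided by a factor for each library that is the median of its ratios to the other libraries. Fold changes are differences of group means of log2(scaled TPM + 1), with the standard error (SE), and adjusted p-values are from limma with Benjamini-Hochberg adjustment over 16122 genes, those whose mean reached 1 TPM. A gene that passed an adjusted p of 0.05 is said to have risen or fallen.

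The libraries held between 7744768 and 16183655 reads on genes, as recovered from the TPM steps. Replicates 3 and 4 of Day 30 RPMI/B27 stood apart from the other libraries. They had the lowest scaling factors, 0.783 and 0.718, and the mitochondrial ribosomal RNA RNR1 was at 14387 and 29276 TPM, against 49.5 to 6806 TPM elsewhere. The 9 cardiomyocyte markers were expressed in every library, with a summed scaled TPM of 11112 to 24244. Of the 7 adipocyte markers, ADIPOQ, LEP, CIDEC, CIDEA and FABP4 had at most 3 reads in every library, PLIN1 had 0 to 5 and PPARG 2 to 16. The 11 hepatic endoderm markers, which include AFP, ALB and TTR, summed to 361 to 714 scaled TPM at Day 16 and 460 to 502 in Day 30 RPMI/B27, but to 97.5 to 245 in Day 30 RPMI_glcM/B27 and 80.5 to 212 in Day 30 HPLM/B27, so they moved with the medium. The 8 fibroblast markers summed to 183 to 266 at Day 16 and 160 to 221 in Day 30 RPMI/B27, but to 121 to 138 in Day 30 RPMI_glcM/B27 and 117 to 172 in Day 30 HPLM/B27. The 6 smooth muscle markers summed to 282 to 696 at Day 16, and to 260 to 1273, 299 to 326 and 277 to 556 in the media at Day 30 in the same order. MYH11, the smooth muscle myosin heavy chain in that list, had 0 reads in every library. The 8 endothelial markers summed to 36.8 to 46.3 at Day 16 and to 17.4 to 35.2 at Day 30. This sum was nearly all KDR, at 16.3 to 45.3 scaled TPM over the 16 libraries. The other endothelial markers reached at most 0.999 each, so the sum describes 1 gene. Liver cells also express the oxidation genes, and the part of these other cell types in the results that follow was not tested. In such bulk samples, fewer cells of a type and less RNA per cell cannot be told apart.

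Of the 36 genes, 33 reached a mean of 1 TPM and were tested. FABP3 was the most abundant with a mean of 299.9 scaled TPM over the 16 libraries, followed by HADHA at 201.1 and HADHB at 112.8, and the tested gene with the lowest mean was LIPE, hormone-sensitive lipase, at 2.44.

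LPL, FABP4 and CPT1B were too low to test. LPL, the lipase that frees fatty acids from lipoproteins, had 6, 7, 9 and 12 reads in the Day 16 libraries, 6, 22, 18 and 5 in Day 30 RPMI/B27, 16, 11, 9 and 15 in Day 30 RPMI_glcM/B27 and 12, 27, 23 and 22 in Day 30 HPLM/B27. Its mean was 0.517 ± 0.173 scaled TPM at Day 16 and 1.37 ± 0.419 in Day 30 HPLM/B27 (SD, n = 4), and its level in each HPLM/B27 library was above that in each Day 16 library. FABP4, the adipocyte fatty acid-binding protein, was at 0 in 14 libraries and had 1 read in Day 16 replicates 2 and 4. CPT1B, the muscle carnitine palmitoyltransferase, was at 0 in 8 libraries and had at most 4 reads, with 14 in all. At its locus on chromosome 22 (GRCh38, CPT1B at 50568861 to 50578465), the readthrough gene CHKB-CPT1B shares 66.4% of the exonic bases of CPT1B on the same strand, and CHKB and CHKB-CPT1B had 4 and 1 reads in all. Reads that fall on overlapping genes are discarded by many counting settings, and whether this was so here is not given in the sources used, so the level of CPT1B could not be read from the table.

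From Day 16 to Day 30 in the standard RPMI/B27 medium, 5 of the 33 genes changed, 3 up and 2 down, which is 15.2% beside 17.5% of all genes tested (8.62% up and 8.91% down). The genes that rose were CD36, FABP3 and ACOT13, and those that fell were SLC27A4 and ACOT2. The median log2 fold change of the 33 genes was 0.05, and that of all genes was 0.00. Without the scaling, on the deposited TPM, the count was also 5, but 1 up and 4 down (19.9% of all genes called), and the median of all genes lay at -0.28.

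In Day 30 RPMI_glcM/B27, 14 of the 33 genes changed against Day 16, 9 up and 5 down, beside 27.5% of all genes (13.4% up and 14.2% down). In Day 30 HPLM/B27, 13 changed, 12 up and 1, CPT2, down, beside 25.3% of all genes (12.9% up and 12.5% down). The median log2 fold changes of the 33 genes were 0.07 and 0.19. On the deposited TPM the counts were 8, with 3 up and 5 down (21.1% of all genes called), and 3, with 1 up and 2 down (25.4%), where the median of all genes was -0.22 and -0.29. The comparisons share the Day 16 libraries.

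Among the media at Day 30, 6 genes differed in RPMI_glcM/B27 from RPMI/B27, of which 5 were higher and DECR1 was lower, beside 12.1% of all genes (6.17% higher and 5.89% lower). Between HPLM/B27 and RPMI/B27, 8 differed, 7 higher and 1 lower, beside 12.9% of all genes (7.05% higher and 5.87% lower). Both comparisons share the RPMI/B27 libraries. FABP3, CPT1A, ETFDH and ACAA1 were higher in both media of lower glucose. The deposited TPM gave 1 and 2, beside 2.2% and 2.41% of all genes. With the 2 RPMI/B27 libraries of high RNR1 left out, an alternative chosen after seeing the data, the counts were 6, with 4 higher and 2 lower, and 10, with 9 higher and 1 lower, beside 1474 and 1991 of the 16122 genes. Between HPLM/B27 and RPMI_glcM/B27, which share their glucose concentration, 2 genes differed, DECR1 and ECI2, both higher in HPLM/B27, beside 1.63% of all genes (0.999% higher). There the deposited TPM gave no member past the threshold by limma (0.0682% of all genes), and 1 had an unadjusted p under 0.05, beside 1053 of the 16122 genes. On the scaled TPM, 6 of the 33 genes had an unadjusted limma p under 0.05, beside 2220 of the 16122. Of the 48 calls of members over the 6 comparisons, 15 also passed on the deposited TPM and 33 did not.

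**Figure D1:**
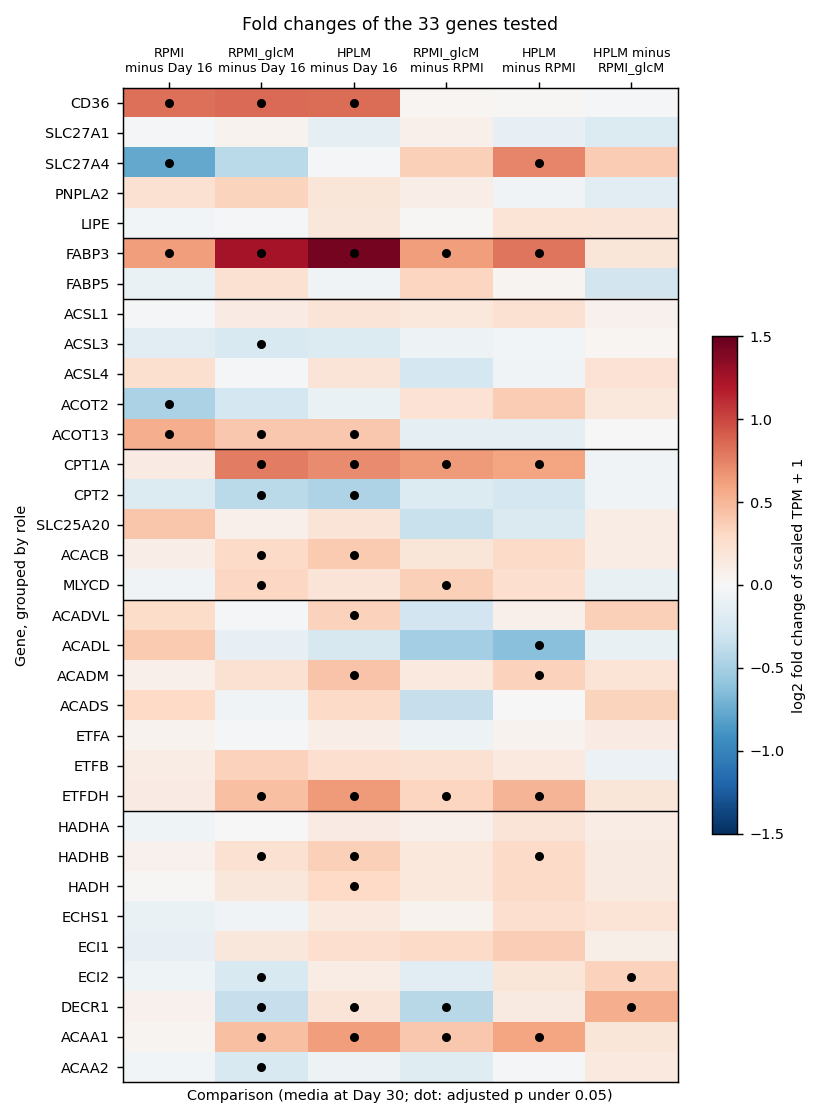
Log2 fold change of scaled TPM + 1 (colour, from -1.5 to 1.5) for the 33 genes tested (rows, grouped by role, lines between roles) in 6 comparisons (columns), with a dot where the adjusted p was under 0.05. FABP3 has a dot in the first 5 columns, and the last column holds only the dots of ECI2 and DECR1.

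Of the 5 tested genes of uptake and release, CD36 rose with time in every medium. CD36, the fatty acid translocase of the plasma membrane, was at 4.804, 5.09, 4.92 and 5.56 scaled TPM in the Day 16 libraries, at 10.6, 10.9, 8.26 and 9.39 in Day 30 RPMI/B27, at 12.97, 9.97, 7.68 and 9.94 in Day 30 RPMI_glcM/B27 and at 9.697, 8.04, 10.4 and 11.5 in Day 30 HPLM/B27. Every Day 30 library was above every Day 16 library, and the 3 media overlapped. Against Day 16 the log2 fold change was 0.82 in RPMI/B27, 0.83 in HPLM/B27 and 0.85 in RPMI_glcM/B27 (SE 0.13, adjusted p = 0.000588, 0.000318 and 0.000258). Between HPLM/B27 and RPMI/B27 the difference of CD36 was 0.01, with a 95% interval of -0.27 to 0.30. On the deposited TPM the rise of CD36 in RPMI/B27 and in HPLM/B27 no longer passed (adjusted p = 0.0753 and 0.0640).

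SLC27A4, fatty acid transport protein 4, moved otherwise. Its scaled TPM was 4.58, 2.88, 6.87 and 4.68 at Day 16, 2.27, 1.96, 3.18 and 1.89 in Day 30 RPMI/B27, 2.72, 3.41, 3.19 and 3.57 in Day 30 RPMI_glcM/B27 and 3.57, 4.29, 4.64 and 5.58 in Day 30 HPLM/B27. It was lower in Day 30 RPMI/B27 than at Day 16, with some overlap, and its HPLM/B27 libraries lay above all RPMI/B27 libraries. The fall against Day 16 was -0.76 (SE 0.19, adjusted p = 0.0102) and the difference of HPLM/B27 from RPMI/B27 was 0.74 (SE 0.19, adjusted p = 0.0171). The fall did not pass with only the 2 groups in the fit (adjusted p = 0.0597), and the difference did not pass without RPMI/B27 replicate 4 or HPLM/B27 replicate 4, nor on the deposited TPM (adjusted p = 0.0656). SLC27A1 (fatty acid transport protein 1), PNPLA2 (adipose triglyceride lipase) and LIPE passed in no comparison.

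FABP3, the heart type of fatty acid-binding protein, showed the largest fold change of the 33 genes against Day 16 in both media of lower glucose. It was at 149, 148, 155 and 176 scaled TPM in the Day 16 libraries, at 222, 202, 262 and 292 in Day 30 RPMI/B27, at 343, 363, 377 and 413 in Day 30 RPMI_glcM/B27 and at 434, 457, 384 and 423 in Day 30 HPLM/B27. The Day 16, RPMI/B27 and RPMI_glcM/B27 libraries formed 3 ranges that did not overlap, and the HPLM/B27 range overlapped that of RPMI_glcM/B27. Against Day 16 the log2 fold change was 0.63 in RPMI/B27, 1.25 with lower glucose in RPMI_glcM/B27 and 1.43 in HPLM/B27 (SE 0.11, adjusted p = 0.000758, 8.85e-07 and 2.47e-07). The differences of RPMI_glcM/B27 and HPLM/B27 from Day 30 RPMI/B27 were 0.62 and 0.81 (SE 0.11, adjusted p = 0.00183 and 0.000212). Between HPLM/B27 and RPMI_glcM/B27 the difference was 0.18, with a 95% interval of -0.04 to 0.41. These 5 calls passed under all 9 alternatives and in all 8 fits of each comparison that left out 1 library. The size of the rise in RPMI/B27 was less firm, at 0.29 on the deposited TPM (adjusted p = 0.0437) and 0.43 without the 2 libraries of high RNR1, which were its 2 highest (adjusted p = 0.00736).

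FABP5, the epidermal fatty acid-binding protein, passed in no comparison. Its scaled TPM was 20.6, 10.4, 12.7 and 30.1 at Day 16, 9.13, 10.3, 29.9 and 21.9 in Day 30 RPMI/B27, 12.7, 20.4, 25.3 and 24.5 in Day 30 RPMI_glcM/B27 and 19.9, 17.6, 12.2 and 16.6 in Day 30 HPLM/B27. All 4 groups overlapped, and FABP5 has many processed pseudogenes, so its reads are uncertain. The log2 ratio of FABP3 to FABP5 was 3.21 ± 0.607 at Day 16 and 4.70 ± 0.219 in Day 30 HPLM/B27 (SD, n = 4), a difference of 1.49 (two-sided exact permutation test, p = 0.0286, the smallest that 4 against 4 allows, and 0.114 after adjustment over 24 tests of ratios).

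**Figure D2:**
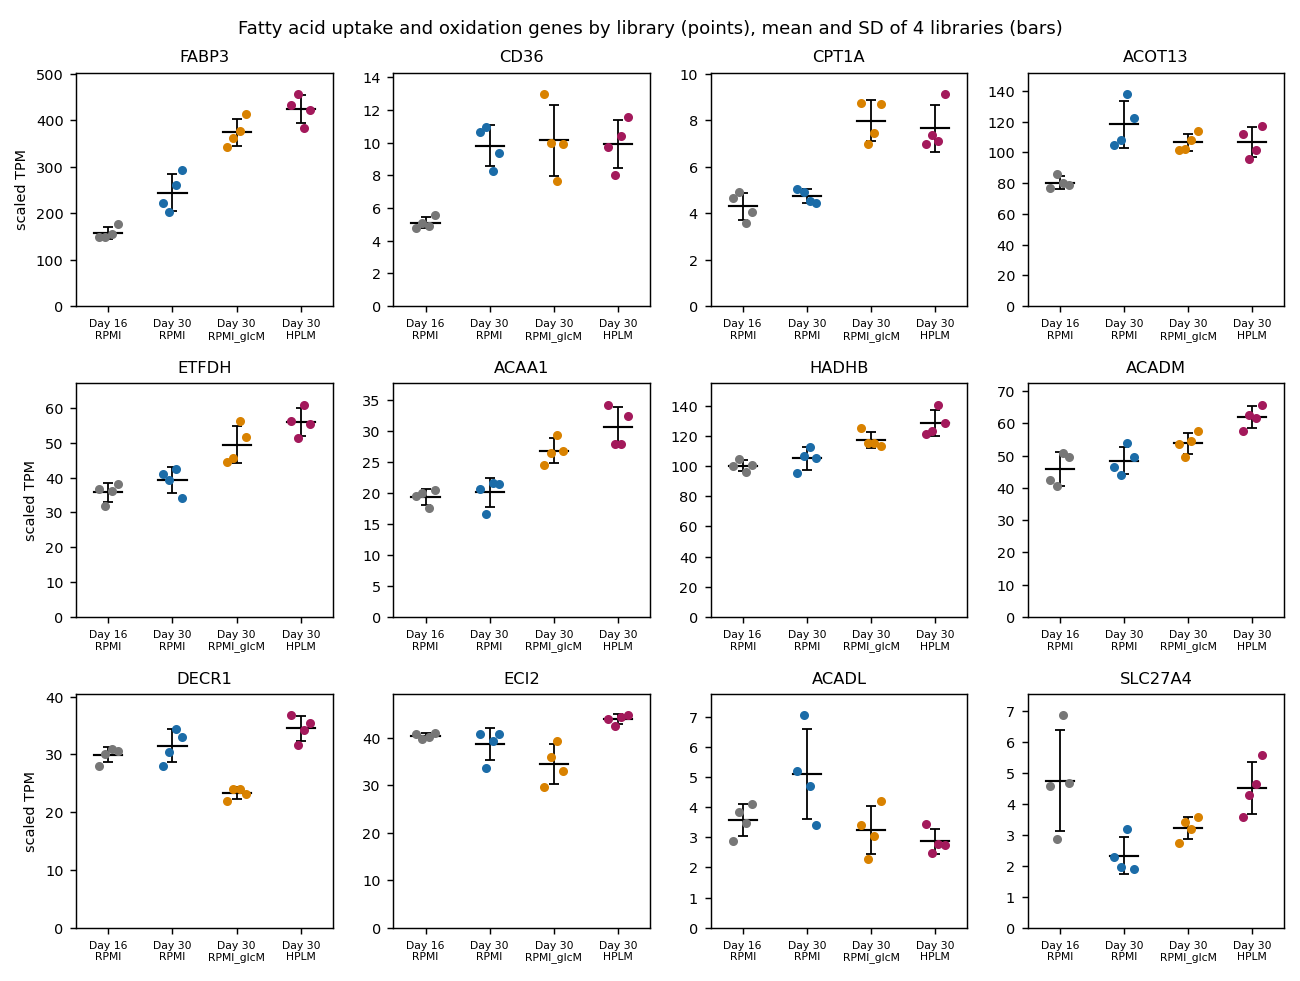
Scaled TPM (vertical axes, from 0) of 12 genes in each library (points), with the mean and SD of the 4 libraries of a group (bars). FABP3 rises from a mean of 157 at Day 16 to 424 in Day 30 HPLM/B27, CD36 differs between days, CPT1A is higher in both media of lower glucose, and DECR1 is lowest in Day 30 RPMI_glcM/B27.

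Of the 5 genes of activation and thioester cleavage, ACOT13, a thioesterase of long-chain acyl-CoA, rose in all 3 media against Day 16. Its scaled TPM was 76.5, 85.995, 79.8 and 78.6 at Day 16, 105, 108, 138 and 122 in Day 30 RPMI/B27, 102, 102, 108 and 114 in Day 30 RPMI_glcM/B27 and 112, 95.7, 102 and 117 in Day 30 HPLM/B27. The Day 30 libraries were all above those of Day 16, by 0.55, 0.40 and 0.40 on the log2 scale (SE 0.09, adjusted p = 0.000491, 0.00293 and 0.00296). The deposited TPM gave 0.21, 0.14 and 0.07, and none passed.

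ACOT2, a mitochondrial thioesterase with a near-identical neighbour, ACOT1, fell in Day 30 RPMI/B27. It was at 14.3, 14.2, 12.99 and 12.1 scaled TPM at Day 16, at 9.95, 8.802, 12.1 and 7.196 in Day 30 RPMI/B27, at 11.5, 13.9, 9.37 and 9.85 in Day 30 RPMI_glcM/B27 and at 12.3, 12.4, 10.8 and 14.5 in Day 30 HPLM/B27. Its fall against Day 16 was -0.47 (SE 0.14, adjusted p = 0.0297) and passed in 3 of 8 fits that left out 1 library. It failed without Day 16 replicate 1, 2 or 3 or without RPMI/B27 replicate 2 or 4, and the test of ACOT2 between HPLM/B27 and RPMI/B27 gave 0.38 (adjusted p = 0.0909).

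The acyl-CoA synthetases, which activate fatty acids, changed little. ACSL1, the main heart form, was at 11.8, 14.03, 14.2 and 13.6 scaled TPM at Day 16, at 11.3, 13.3, 13.9 and 13.8 in Day 30 RPMI/B27, at 16.4, 13.1, 16.4 and 13.4 in Day 30 RPMI_glcM/B27 and at 13.9, 18.05, 14.3 and 15.8 in Day 30 HPLM/B27, and passed in no comparison. ACSL3, a synthetase of lipid droplets and the endoplasmic reticulum, was at 33.2, 34.04, 33.9 and 33.01 at Day 16, at 30.9, 31.8, 26.2 and 30.8 in Day 30 RPMI/B27, at 32.4, 27.1, 25.99 and 28.3 in Day 30 RPMI_glcM/B27 and at 28.3, 30.96, 28.9 and 28.1 in Day 30 HPLM/B27. All 12 Day 30 libraries were below those of Day 16 for ACSL3, and the fall passed in RPMI_glcM/B27 (-0.23, SE 0.07, adjusted p = 0.0256), though in 4 of 8 fits that left out 1 library. It failed without Day 16 replicate 3 or without RPMI_glcM/B27 replicate 2, 3 or 4. The log2 ratio of ACSL1 to ACSL3 rose from -1.33 ± 0.108 at Day 16 to -0.91 ± 0.128 in Day 30 HPLM/B27 (SD, n = 4), with an exact permutation p of 0.0286 and an adjusted p of 0.114. ACSL4, which prefers arachidonic acid, passed in no comparison.

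CPT1A, the carnitine palmitoyltransferase of the outer mitochondrial membrane and the controlled step of the pathway, was higher in both media of lower glucose. It was at 4.66, 4.89, 3.59 and 4.05 scaled TPM at Day 16, at 5.04, 4.93, 4.53 and 4.42 in Day 30 RPMI/B27, at 8.75, 6.99, 7.46 and 8.71 in Day 30 RPMI_glcM/B27 and at 6.98, 7.35, 7.104 and 9.13 in Day 30 HPLM/B27. Each of the 8 libraries of lower glucose was above each of the other 8. The log2 differences of RPMI_glcM/B27 and HPLM/B27 from Day 30 RPMI/B27 were 0.64 and 0.59 (SE 0.10, adjusted p = 0.00140 and 0.00202), and against Day 16 it was 0.76 and 0.71 (adjusted p = 7.71e-05 and 0.000155). From Day 16 to Day 30 in RPMI/B27 the difference was 0.12, with a 95% interval of -0.10 to 0.34. Between HPLM/B27 and RPMI_glcM/B27 it was -0.06, with an interval of -0.28 to 0.17. On the deposited TPM the differences from Day 30 RPMI/B27 were 0.70 and 0.57 and did not pass (adjusted p = 0.0513 and 0.112), and the rise in HPLM/B27 against Day 16 was 0.42 (adjusted p = 0.0904).

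CPT2, which restores acyl-CoA at the inner membrane, was the only gene of the shuttle to fall. Its scaled TPM was 22.7, 18.5, 17.8 and 16.95 at Day 16, 17.2, 16.5, 14.98 and 16.5 in Day 30 RPMI/B27, 15.5, 11.6, 16.6 and 12.8 in Day 30 RPMI_glcM/B27 and 15.04, 13.8, 10.3 and 14.97 in Day 30 HPLM/B27. All libraries of the media of lower glucose were below all of Day 16. The fall was -0.41 in RPMI_glcM/B27 and -0.47 in HPLM/B27 (SE 0.13, adjusted p = 0.0282 and 0.0146). Both failed without Day 16 replicate 1, the highest library, and the former also without RPMI_glcM/B27 replicate 2 or 4.

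Malonyl-CoA, the inhibitor of CPT1, is made by ACACB and broken down by MLYCD, and both were higher in RPMI_glcM/B27 than at Day 16. MLYCD was at 7.95, 8.28, 7.76 and 7.504 scaled TPM at Day 16, at 8.202, 6.93, 8.03 and 7.04 in Day 30 RPMI/B27, at 8.44, 11.3, 10.4 and 9.93 in Day 30 RPMI_glcM/B27 and at 8.38, 10.03, 9.701 and 8.63 in Day 30 HPLM/B27. Both media of lower glucose lay above both others in every library. MLYCD passed in RPMI_glcM/B27 against Day 16 (0.31, adjusted p = 0.0183) and against RPMI/B27 (0.36, SE 0.09, adjusted p = 0.0160), but neither held without RPMI_glcM/B27 replicate 2, nor the latter without the 2 RPMI/B27 libraries of high RNR1 (adjusted p = 0.0600). ACACB ranged from 12.8 to 20.7 scaled TPM over the 16 libraries and rose against Day 16 by 0.28 in RPMI_glcM/B27 and 0.39 in HPLM/B27 (adjusted p = 0.0337 and 0.00567), the former not without any of Day 16 replicates 1, 3 and 4 and RPMI_glcM/B27 replicates 1, 3 and 4. On the deposited TPM the rises of ACACB were 0.035 and 0.070 (adjusted p = 0.919 and 0.813), and neither passed with TPM without mitochondrial and ribosomal RNA and RN7SK (adjusted p = 0.277 and 0.114). MLYCD passed in neither comparison on the deposited TPM (0.07 and 0.42, adjusted p = 0.802 and 0.229). SLC25A20, the carnitine-acylcarnitine carrier, ranged from 3.16 to 8.39 and passed in no comparison.

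For the genes FABP3 and CPT1A, which were higher in both media of lower glucose, the 250 bases before the RefSeq start site are given, in lower case since none of the 3 motifs searched was found in them (GRCh38.p14, FABP3 at chr1:31373077-31373326 and CPT1A at chr11:68844278-68844527, both on the minus strand and written 5′ to 3′).
FABP3: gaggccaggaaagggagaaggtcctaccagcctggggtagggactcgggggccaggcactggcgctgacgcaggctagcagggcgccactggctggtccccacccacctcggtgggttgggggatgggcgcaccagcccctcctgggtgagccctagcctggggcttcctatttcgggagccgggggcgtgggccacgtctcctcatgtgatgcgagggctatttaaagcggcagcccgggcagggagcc
CPT1A: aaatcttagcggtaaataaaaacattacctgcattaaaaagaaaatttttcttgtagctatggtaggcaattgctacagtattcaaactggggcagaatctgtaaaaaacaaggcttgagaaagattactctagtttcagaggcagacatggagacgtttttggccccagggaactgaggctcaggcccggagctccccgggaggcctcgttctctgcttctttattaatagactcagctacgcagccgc
The windows differ in base composition, with 69.2% G and C and 13 CG dinucleotides for FABP3 against 44.4% and 7 for CPT1A. The motifs were the DR1 repeat bound by PPAR and RXR (2 copies of AGGTCA with 1 base between them), TCAAGGTCA, the site of the estrogen-related receptors, and CACGTG, the E-box. They were searched on both strands in the window of 300 bases from 250 before to 50 after the start site, which RefSeq gave for 29 of the 36 genes. None of the 29 held any of them, beside 0.022%, 0.359% and 7.43% of 27305 promoters. A window of this length holds none of the distal elements.

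Of the 7 acyl-CoA dehydrogenases and electron transfer proteins, ETFDH moved in most comparisons. ETFDH, which passes electrons from beta-oxidation to ubiquinone, was at 36.7, 31.8, 36.2 and 38.3 scaled TPM at Day 16, at 40.98, 39.3, 42.6 and 34.03 in Day 30 RPMI/B27, at 44.5, 45.6, 56.1 and 51.6 in Day 30 RPMI_glcM/B27 and at 56.3, 51.3, 60.9 and 55.4 in Day 30 HPLM/B27. Each library of the media of lower glucose was above each library of the other groups. The log2 fold change was 0.45 and 0.63 against Day 16 (SE 0.09, adjusted p = 0.00156 and 0.000106) and 0.33 and 0.50 against Day 30 RPMI/B27 (adjusted p = 0.0290 and 0.00202). The difference of RPMI_glcM/B27 from RPMI/B27 did not pass without the 2 RPMI/B27 libraries of high RNR1 (0.29, adjusted p = 0.0906) or without any of RPMI/B27 replicates 2 and 4 and RPMI_glcM/B27 replicates 3 and 4. The rises of ETFDH against Day 16 on the deposited TPM were 0.20 and 0.30 (adjusted p = 0.410 and 0.172) and none of its 4 calls was kept, with an adjusted p of 0.241 and 0.123 against RPMI/B27. ETFDH shares 6.0% of its exonic bases with PPID on the other strand.

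ACADM, the medium-chain dehydrogenase, ranged from 40.5 to 50.98 scaled TPM at Day 16, from 43.97 to 53.8 in Day 30 RPMI/B27, from 49.5 to 57.6 in Day 30 RPMI_glcM/B27 and from 57.5 to 65.8 in Day 30 HPLM/B27. The HPLM/B27 libraries were above those of RPMI/B27 and of Day 16. ACADM rose by 0.43 against Day 16 and by 0.35 against RPMI/B27 (SE 0.08, adjusted p = 0.00146 and 0.0126) in HPLM/B27. These were 0.10 and 0.35 on the deposited TPM, and neither passed (adjusted p = 0.584 and 0.172). ACADVL, the very long-chain dehydrogenase, rose against Day 16 in HPLM/B27 (0.34, adjusted p = 0.0481), with overlapping groups, and failed without any of Day 16 replicates 1, 3 and 4 and HPLM/B27 replicates 1, 3 and 4, and on the deposited TPM (0.01, adjusted p = 0.9746). Its HPLM/B27 libraries, at 60.2 to 72.6 scaled TPM, were all above those of RPMI_glcM/B27, at 46.2 to 58.0, but that difference did not pass. ACADL, the long-chain dehydrogenase, was at 2.88, 3.84, 3.47 and 4.11 scaled TPM at Day 16, at 5.22, 7.07, 4.72 and 3.43 in Day 30 RPMI/B27, at 3.42, 2.28, 3.06 and 4.201 in Day 30 RPMI_glcM/B27 and at 3.46, 2.496, 2.77 and 2.76 in Day 30 HPLM/B27. ACADL was the 1 gene lower in HPLM/B27 than in RPMI/B27 (-0.63, SE 0.17, adjusted p = 0.0269), and it passed in 3 of 8 fits that left out 1 library, failing without RPMI/B27 replicate 1 or 2 or HPLM/B27 replicate 2, 3 or 4, and also on the deposited TPM (adjusted p = 0.191).

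ACADS, the short-chain dehydrogenase, passed in no comparison, nor did the subunits of the electron transfer flavoprotein. ETFA was at 64.3, 55.9, 63.9 and 71.6 scaled TPM at Day 16, at 60.3, 57.3, 76.2 and 71.96 in Day 30 RPMI/B27, at 60.2, 61.95, 63.9 and 64.8 in Day 30 RPMI_glcM/B27 and at 73.5, 62.5, 66.4 and 71.7 in Day 30 HPLM/B27. ETFB was at 34.9, 26.9, 41.4 and 51.3 at Day 16, at 28.6, 24.6, 67.6 and 56.6 in Day 30 RPMI/B27, at 43.8, 41.6, 54.2 and 53.2 in Day 30 RPMI_glcM/B27 and at 60.7, 35.4, 39.9 and 47.7 in Day 30 HPLM/B27. ETFB was high in RPMI/B27 replicates 3 and 4, the libraries of high RNR1, and its groups overlapped throughout. The log2 ratio of ETFA to ETFB passed in no comparison (smallest adjusted p = 0.171).

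HADHA and HADHB, the subunits of the mitochondrial trifunctional protein, are divergent neighbours on chromosome 2. Their RefSeq start sites lie at 26244632 (HADHA, minus strand) and 26244939 (HADHB, plus strand), with 306 bases between them. The 250 bases before the HADHB start site are given with the stretch in capitals that also belongs to the window before HADHA, 194 bases (GRCh38.p14, chr2:26244689-26244938, plus strand).
HADHB: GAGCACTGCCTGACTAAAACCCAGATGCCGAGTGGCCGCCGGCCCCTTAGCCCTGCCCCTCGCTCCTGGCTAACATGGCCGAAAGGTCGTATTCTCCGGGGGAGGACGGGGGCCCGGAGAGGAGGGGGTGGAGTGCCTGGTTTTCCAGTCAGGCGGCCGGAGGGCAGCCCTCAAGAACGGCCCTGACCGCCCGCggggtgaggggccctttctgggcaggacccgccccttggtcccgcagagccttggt
HADHA was at 198, 197, 204 and 194 scaled TPM at Day 16, at 181, 175, 216 and 188 in Day 30 RPMI/B27, at 209, 199.5, 198 and 193 in Day 30 RPMI_glcM/B27 and at 224, 208, 218 and 215 in Day 30 HPLM/B27. HADHB was at 99.8, 105, 95.8 and 100.7 at Day 16, at 95.2, 107, 113 and 105 in Day 30 RPMI/B27, at 125, 115, 116 and 113 in Day 30 RPMI_glcM/B27 and at 121, 123, 141 and 129 in Day 30 HPLM/B27. The HPLM/B27 libraries were above those of Day 16 for both genes. HADHB rose by 0.35 against Day 16 and by 0.29 against RPMI/B27 in HPLM/B27 (SE 0.06, adjusted p = 0.000795 and 0.00795), and by 0.22 against Day 16 in RPMI_glcM/B27 (adjusted p = 0.0162, not past the threshold without Day 16 replicate 3 or RPMI_glcM/B27 replicate 1), whereas HADHA passed in no comparison, with 0.13 and 0.19 in HPLM/B27 (adjusted p = 0.159 and 0.0561). None of the 3 calls of HADHB was kept on the deposited TPM. There HADHB differed from Day 16 by 0.017 in HPLM/B27 and -0.037 in RPMI_glcM/B27 (adjusted p = 0.944 and 0.880), and HPLM/B27 from RPMI/B27 by 0.29 (adjusted p = 0.371). The log2 ratio of HADHA to HADHB, which no scaling between libraries can move, was 0.98 ± 0.0800 at Day 16, 0.77 ± 0.0214 in RPMI_glcM/B27 and 0.75 ± 0.104 in HPLM/B27 (SD, n = 4), with an exact permutation p of 0.0286 for each against Day 16 and an adjusted p of 0.114.

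ACAA1, the peroxisomal thiolase of straight-chain acyl-CoA, followed the media. Its scaled TPM was 19.5, 20.1, 17.5 and 20.4 at Day 16, 20.6, 16.7, 21.6 and 21.5 in Day 30 RPMI/B27, 24.5, 26.5, 29.4 and 26.9 in Day 30 RPMI_glcM/B27 and 34.3, 27.9, 27.97 and 32.4 in Day 30 HPLM/B27. Each of the 8 libraries of lower glucose was above each of the other 8. ACAA1 was higher than in RPMI/B27, by 0.40 for RPMI_glcM/B27 and 0.59 for HPLM/B27 (SE 0.09, adjusted p = 0.0116 and 0.000879), and higher than at Day 16 by 0.45 and 0.63 (adjusted p = 0.00225 and 0.000147). Of these 4 calls on the deposited TPM, the difference of HPLM/B27 from RPMI/B27 was kept (0.58, adjusted p = 0.0233), and the others were not, at 0.47 for RPMI_glcM/B27 against RPMI/B27 (adjusted p = 0.0671) and at 0.20 and 0.31 against Day 16 (adjusted p = 0.303 and 0.0884). ACAA1 shares 19.7% of its exonic bases with DLEC1 on the other strand, which had 4 to 33 reads. ACAA2, the mitochondrial thiolase, fell against Day 16 in RPMI_glcM/B27 by 0.23 on the log2 scale (SE 0.06, adjusted p = 0.0121) and passed nowhere else.

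DECR1, the mitochondrial 2,4-dienoyl-CoA reductase that oxidation of polyunsaturated fatty acids needs, was the gene that set HPLM/B27 apart from the medium of matched glucose. It was at 27.99, 30.1, 30.9 and 30.6 scaled TPM at Day 16, at 28.03, 30.5, 34.4 and 33.1 in Day 30 RPMI/B27, at 21.9, 23.98, 24.05 and 23.2 in Day 30 RPMI_glcM/B27 and at 36.7, 31.6, 34.2 and 35.3 in Day 30 HPLM/B27. The 4 RPMI_glcM/B27 libraries were below all 12 others, and each HPLM/B27 library was above each Day 16 library. DECR1 was higher in HPLM/B27 than in RPMI_glcM/B27 by 0.55 (SE 0.07, adjusted p = 0.00116). RPMI_glcM/B27 was lower than RPMI/B27 by -0.42 and lower than Day 16 by -0.35 (adjusted p = 0.00156 and 0.00158), the former not on the deposited TPM (-0.35, adjusted p = 0.177). The difference between HPLM/B27 and RPMI_glcM/B27 passed in all 8 fits that left out 1 library and failed among the 9 alternatives only with the deposited TPM (0.47, adjusted p = 0.208). HPLM/B27 differed from RPMI/B27 by 0.13, with a 95% interval of -0.02 to 0.28. Its rise against Day 16 (0.20, adjusted p = 0.0467) passed in 1 of 8 fits that left out 1 library, the one without HPLM/B27 replicate 2, and was -0.13 with the deposited TPM.

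ECI2, an enoyl-CoA isomerase of peroxisomes and mitochondria that also serves unsaturated fatty acids, was also higher in HPLM/B27 than in RPMI_glcM/B27, less firmly. Its scaled TPM was 40.8, 39.7, 40.3 and 41.1 at Day 16, 40.8, 33.7, 39.3 and 40.9 in Day 30 RPMI/B27, 29.6, 35.99, 39.4 and 32.97 in Day 30 RPMI_glcM/B27 and 43.99, 42.5, 44.5 and 44.8 in Day 30 HPLM/B27. The HPLM/B27 libraries were above all others. The difference from RPMI_glcM/B27 was 0.35 (SE 0.08, adjusted p = 0.0392), which passed in 3 of 9 alternatives and in 1 of 8 fits that left out 1 library, the one without RPMI_glcM/B27 replicate 3. Its fall against Day 16 in RPMI_glcM/B27 (-0.23, adjusted p = 0.0397) passed in 2 of 8 such fits, those without RPMI_glcM/B27 replicate 2 or 3. ECI1, the mitochondrial isomerase, had 0.08 in the same comparison (95% interval -0.20 to 0.37) and passed in none. HADH, the short-chain hydroxyacyl-CoA dehydrogenase, rose in HPLM/B27 against Day 16 (0.30, adjusted p = 0.0272), though not without any of Day 16 replicates 1, 3 and 4 and HPLM/B27 replicates 2 and 3, and was at -0.02 with the deposited TPM, and ECHS1, the short-chain enoyl-CoA hydratase, passed in no comparison.

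**Figure D3:**
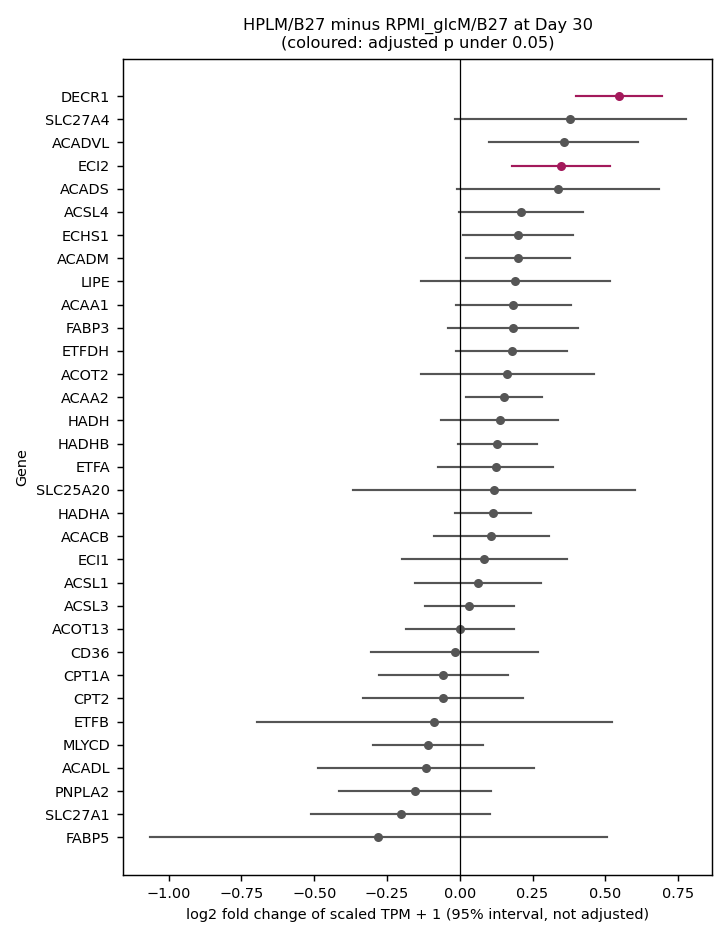
Log2 fold change of scaled TPM + 1 (horizontal axis) between HPLM/B27 and RPMI_glcM/B27 at Day 30 for the 33 genes tested (rows, in order of size), with 95% intervals not adjusted for the number of genes, and the 2 genes of an adjusted p under 0.05 in colour. DECR1 at 0.55 and ECI2 at 0.35 are coloured, and 24 of the 33 points lie above 0. The median of all genes tested was 0.001, and the share of all genes above 0 was not counted. On the deposited TPM, 21 of the 33 genes lay above 0.

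The surrounding lipid pathways were read from 6 further lists of 75 genes, 55 of them tested. Against Day 30 RPMI/B27, 2 were higher and 4 lower in RPMI_glcM/B27, and 5 were higher and 4 lower in HPLM/B27, beside 12.1% (6.17% higher and 5.89% lower) and 12.9% (7.05% higher and 5.87% lower) of all genes. Of the 35 calls of the named genes among them, 19 also passed on the deposited TPM and 16 did not. Of the 13 peroxisomal oxidation genes tested, none differed between any media at Day 30 by limma at an adjusted p of 0.05, while PHYH (phytanoyl-CoA hydroxylase) and SCP2 (sterol carrier protein and thiolase) rose against Day 16 in HPLM/B27 by 0.49 and 0.29 (adjusted p = 0.0360 and 0.00574). PHYH passed in 1 of 8 fits that left out 1 library, the one without HPLM/B27 replicate 4, and SCP2 was at -0.04 with the deposited TPM.

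G0S2, the protein inhibitor of the triglyceride lipase PNPLA2, was highest in the standard medium. It was at 5.64, 16.5, 10.1 and 11.9 scaled TPM at Day 16, at 29.8, 31.8, 46.4 and 57.1 in Day 30 RPMI/B27, at 15.2, 9.77, 16.6 and 26.4 in Day 30 RPMI_glcM/B27 and at 17.3, 14.1, 11.99 and 15.6 in Day 30 HPLM/B27. Each RPMI/B27 library was above the 12 others, and the highest were replicates 3 and 4. G0S2 rose by 1.85 against Day 16 (SE 0.30, adjusted p = 0.000614) and was lower than in RPMI/B27, by -1.26 for RPMI_glcM/B27 and -1.39 for HPLM/B27 (adjusted p = 0.0144 and 0.00764). Without the 2 RPMI/B27 libraries of high RNR1 these differences were -0.90 and -1.03 and did not pass (adjusted p = 0.132 and 0.0785). PNPLA2 itself passed in no comparison. LPIN1, a phosphatidate phosphatase, was higher than in RPMI/B27 by 0.33 and 0.28 (adjusted p = 0.00474 and 0.00996, and 0.213 and 0.415 on the deposited TPM), and PLIN3, a lipid droplet coat protein, was lower by -0.35 and -0.36 (adjusted p = 0.0444 and 0.0385), which passed in 1 and 2 of 8 fits that left out 1 library (without RPMI/B27 replicate 2 in both, and without HPLM/B27 replicate 1 in the latter).

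BBOX1, the last enzyme of carnitine synthesis, was also highest in the standard medium, at a low level. It was at 1.04, 1.85, 2.34 and 1.76 scaled TPM at Day 16, at 2.76, 3.74, 3.23 and 3.86 in Day 30 RPMI/B27, at 1.201, 1.82, 0.7503 and 0.968 in Day 30 RPMI_glcM/B27 and at 0.641, 0.941, 1.12 and 0.637 in Day 30 HPLM/B27, from 6 to 61 reads. Each RPMI/B27 library was above the 12 others. BBOX1 was lower than in RPMI/B27, by -1.03 for RPMI_glcM/B27 and -1.26 for HPLM/B27 (SE 0.18, adjusted p = 0.00222 and 0.000384). Among the media at Day 30 the summed hepatic markers, 460 to 502 in RPMI/B27 and 80.5 to 245 in the others, were highest where G0S2 and BBOX1, which liver cells express, were highest. At Day 16 they were not, since the sum was 361 to 714 while G0S2 was at 5.64 to 16.5 and BBOX1 at 1.04 to 2.34, below every RPMI/B27 library. The part of these cells in the results was not tested.

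ACADSB, the dehydrogenase of branched short-chain acyl-CoA from isoleucine, separated HPLM/B27 from both other media at Day 30. It was at 33.6, 25.8, 31.8 and 35.1 scaled TPM at Day 16, at 21.5, 16.6, 22.8 and 17.4 in Day 30 RPMI/B27, at 24.1, 20.4, 22.4 and 22.3 in Day 30 RPMI_glcM/B27 and at 33.9, 32.7, 35.9 and 30.8 in Day 30 HPLM/B27. The HPLM/B27 libraries lay in the Day 16 range or just above it, and both RPMI media lay below. The difference was 0.75 from RPMI/B27 and 0.56 from RPMI_glcM/B27 (SE 0.11, adjusted p = 0.000466 and 0.0171), the latter not without RPMI_glcM/B27 replicate 2 or HPLM/B27 replicate 3, nor on the deposited TPM (adjusted p = 0.426). ACAT1, the mitochondrial acetoacetyl-CoA thiolase of ketone and isoleucine breakdown, was higher in HPLM/B27 than in RPMI/B27 by 0.63 (SE 0.12, adjusted p = 0.00326), with every HPLM/B27 library above the others, and ACAD9, a dehydrogenase and assembly factor of complex I, by 0.45 (adjusted p = 0.0114, and 0.220 on the deposited TPM). SLC27A6, the heart fatty acid transport protein, was lower there by -0.70 (adjusted p = 0.00822), and not past the threshold without the 2 RPMI/B27 libraries of high RNR1 (adjusted p = 0.0616) or on the deposited TPM (adjusted p = 0.0573).

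ACOT11, an acyl-CoA thioesterase, rose with time and further in the media of lower glucose. It was at 19.3, 22.7, 18.4 and 18.98 scaled TPM at Day 16, at 37.04, 36.2, 36.8 and 32.4 in Day 30 RPMI/B27, at 51.7, 49.8, 57.97 and 51.7 in Day 30 RPMI_glcM/B27 and at 48.5, 48.7, 53.2 and 50.7 in Day 30 HPLM/B27. Day 16, RPMI/B27 and the other 2 media formed 3 ranges that did not overlap. The log2 differences of RPMI_glcM/B27 and HPLM/B27 from Day 30 RPMI/B27 were 0.55 and 0.49 (SE 0.07, adjusted p = 0.000259 and 0.000529), and did not pass on the deposited TPM (0.63 and 0.48, adjusted p = 0.0731 and 0.174). MGLL, monoacylglycerol lipase, named after its values were seen, rose in all 3 media against Day 16, from 0.697 to 2.32 scaled TPM to 8.04 to 15.1 at Day 30, by 2.58, 2.24 and 2.38 on the log2 scale (SE 0.21, adjusted p = 1.11e-06, 2.23e-06 and 1.15e-06).

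**Figure D4:**
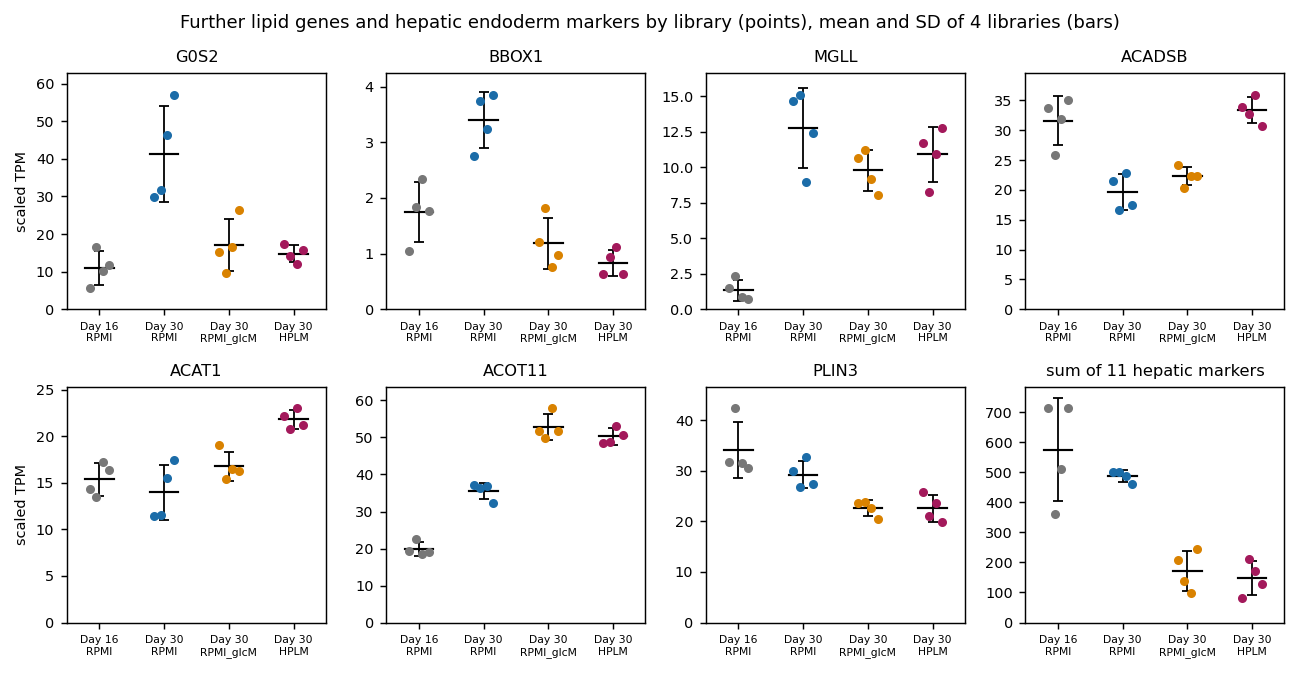
Scaled TPM (vertical axes, from 0) of 7 further lipid genes and the sum of the 11 hepatic endoderm markers in each library (points), with the mean and SD of the 4 libraries of a group (bars). G0S2, BBOX1 and the hepatic sum are higher in Day 30 RPMI/B27 than in the other Day 30 media, ACADSB is higher in HPLM/B27 than in both RPMI media at Day 30, and MGLL differs between days.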

How the data were processed

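Per the paper's methods, the authors made stranded total RNA libraries (Takara SMARTer), ran STAR 2.5.3a against hg38 plus a decoy, and featureCounts 2.0.3 for gene counts. The authors deposited TPM, which relate the counts to gene length and to the total of a library. The annotation and the strand setting are not given in the sources used here. DESeq2 on counts served for the authors' own tests. RNR2 held 41.0% to 48.3% and RN7SK 8.76% to 13.8% of the TPM, and their shares move all other TPM, so the deposited TPM were divided by median-of-ratios factors (from 14918 genes). The study design names 3 wells per medium in its text and the sample labels give 4.

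log2(scaled TPM + 1) was fitted with limma 3.58.1 in R 4.3.3 (lmFit, eBayes with a trend) for all 4 groups and 6 comparisons, on genes whose mean reached 1 TPM. Reads were recovered as whole numbers from the TPM of all 31047 genes above 0, which the steps of low TPM allow. The recovery was tested on simulated data, where 3678 of 3867 genes came out exact. Of those with at least 10 reads, 2019 of 2019 did, so counts below 10 reads may be inexact. In simulated data for HPLM/B27 against RPMI_glcM/B27 (16122 genes), 171 of 200 genes changed by 1 on the log2 scale were recovered, and 7 of 200 changed by 0.5. All genes were given the same spread beyond counting noise there, not the spread measured between these libraries. Ratios of genes were compared with exact permutation tests, and the planned ratio with CPT1B was not run since CPT1B was at 0 in 8 libraries.

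The 36 genes and the further lists were chosen with earlier results of these data known. Values in every library are given for members that differed between HPLM/B27 and RPMI_glcM/B27, for the 6 called members of largest change in each other comparison, for the genes of the ratios, for the 3 most abundant members and for those not tested. Of each further list, at most 4 genes called in HPLM/B27 against RPMI/B27 (or else against Day 16) are named. Alternatives were the deposited TPM, TPM without mitochondrial and ribosomal RNA and RN7SK, a smaller pseudocount (0.1), no filter beyond a value above 0, a filter at 5 TPM, only the 2 groups compared, a replicate block, RNR1 as a covariate, limma-voom on recovered reads, and each library left out in turn. No 2 libraries of a group held the same counts within sampling noise (chi-square per degree of freedom at least 2.05). The CPT1B coordinates and the overlaps between genes are from GENCODE 44, and the start sites and sequences from RefSeq, both on GRCh38.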

Additional observations from a re-analysis of the deposited data

Results flagged for a closer look

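DECR1 differed from Day 16 with opposite signs in the media at Day 30, not all of them past the threshold. It was lower than in RPMI/B27 by -0.418 with RPMI_glcM/B27, and higher in HPLM/B27 than in RPMI_glcM/B27 by 0.547, the differences from Day 16 being 0.069 (RPMI/B27), 0.198 (HPLM/B27) and -0.349 (RPMI_glcM/B27). The difference of DECR1 from Day 16 did not pass in RPMI/B27, and in HPLM/B27 it passed in 1 of 8 fits that left out 1 library. ECI2 differed by 0.349 between HPLM/B27 and RPMI_glcM/B27, at 0.116 (not past the threshold) and -0.233 from Day 16. MLYCD differed by 0.363 between RPMI_glcM/B27 and RPMI/B27, at 0.306 and -0.0565 (not past the threshold) from Day 16.

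Of the further lipid genes, BBOX1 was above Day 16 in RPMI/B27 (0.693) and below it in the other media (-0.332 and -0.570), with differences of -1.03 for RPMI_glcM/B27 and -1.26 for HPLM/B27. SLC27A6 differed by -0.696 between HPLM/B27 and RPMI/B27, at -0.493 and 0.203 from Day 16. ACADSB differed by 0.746 from RPMI/B27, and 0.559 from RPMI_glcM/B27 in HPLM/B27, at 0.0811 from Day 16 against -0.665 and -0.478. LPIN1 was higher than in RPMI/B27, by 0.328 for RPMI_glcM/B27 and 0.283 for HPLM/B27, and ACAT1 by 0.627 in HPLM/B27. In each of these the difference between the media is limma's own test, past an adjusted p of 0.05.

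Single libraries stood apart in 5 of 180 groups of 4, fewer than the 9 that chance gives at about 1 in 20. The gap to the nearest library, as a share of the range on the log2 scale, was 0.8393 for ACSL3 in RPMI/B27 replicate 3 (26.2 scaled TPM against 30.8 to 31.8), 0.8419 for ACADVL in HPLM/B27 replicate 2 (60.2 against 70.4 to 72.6), 0.8367 for ACOT11 in RPMI/B27 replicate 4 (32.4 against 36.2 to 37.0), 0.8998 for PLIN3 in Day 16 replicate 2 (42.4 against 30.7 to 31.7) and 0.8293 for SCP2 in RPMI_glcM/B27 replicate 3 (42.7 against 45.3 to 45.8).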

How the results depend on the processing

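The scaling between libraries mattered most. With the deposited TPM the counts of the 33 genes called were 5, 8 and 3 for RPMI/B27, RPMI_glcM/B27 and HPLM/B27 against Day 16, 1 and 2 for RPMI_glcM/B27 and HPLM/B27 against RPMI/B27, and 0 for HPLM/B27 against RPMI_glcM/B27, in place of 5, 14, 13, 6, 8 and 2, and limma called 11 of all genes in the last comparison, with 1053 genes, 1 of them a member, at an unadjusted p under 0.05. Of all genes, 354 and 388 then differed from RPMI/B27 in the media of lower glucose, in place of 1945 and 2083, and 1143 and 1160 with only the 2 groups compared. The deposited TPM shift all genes together, by a median of -0.28, -0.22 and -0.29 against Day 16. They reversed HADHB in RPMI_glcM/B27 against Day 16 (-0.037), HADH (-0.023), DECR1 (-0.13) and SCP2 (-0.037) in HPLM/B27 against Day 16. With only the 2 groups compared in the fit, RPMI/B27 against Day 16 had 3 calls. Between HPLM/B27 and RPMI_glcM/B27 the count was 1 with TPM without mitochondrial and ribosomal RNA and RN7SK, with all genes above 0, with limma-voom on recovered reads, with only the 2 groups compared and with the replicate block. The cause was not tested. Leaving out 1 library gave 4 to 5, 11 to 16, 9 to 13, 5 to 7, 7 to 12 and 1 to 2 calls in the order above, with 12 without RPMI/B27 replicate 3 and 2 without RPMI_glcM/B27 replicate 3.

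With the replicate block the counts were 5, 16, 12, 6, 9 and 1, beside 3013, 4558, 4209, 1934, 2148 and 229 of all 16122 genes. The main fit did not pair libraries by replicate number. Of 24 same-numbered pairs of deviations, 11 correlated by over 0.1 (range -0.172 to 0.456) and 9 were best with their own number. In 0 pairs of groups were all correlations over 0.1. These correlations were set against no reference, so they cannot show that pairing was absent. Of the calls of single members, 377 were kept under the other alternatives, 68 lost the threshold and 3 turned, and 319 were kept and 65 lost with 1 library left out. For the named further genes these numbers were 291, 40 and 1, and 242 and 38. None of the 24 tests of ratios passed after adjustment (exact permutation tests, smallest adjusted p = 0.114). Whether their p-values held with 1 library left out was not tested. The simulation gave all genes the same spread beyond counting noise, which was not estimated from these data. It therefore sets no limit of detection for them. In the real comparison of HPLM/B27 with RPMI_glcM/B27, DECR1 passed at 0.547 and ECI2 at 0.349. A gene that did not pass is not shown to be unchanged.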
